A study of Homo sapiens with 8 samples.

Results

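Open chromatin was described at 9 genes of telomere maintenance, which are TERT, TERC, DKC1, ATRX, DAXX, H3-3A, H3-3B, SLX4 and RAD52, out of 19971 genes considered (19970 protein-coding genes and TERC). The genes were chosen by name for their role, with earlier results of these data known. FAIRE-seq, in which DNA free of nucleosomes is recovered from fixed and sonicated chromatin and sequenced, was performed in U2OS, a human osteosarcoma cell line. The 8 libraries came from 4 clones, the wild-type clones WT_4 and WT_5 and the ZBTB48 knockout clones KO_C5 and KO_D2, and every clone was sequenced without treatment and after interferon gamma (IFNγ) at 250 U/ml. Treatment lasted 24 hours per the labels and longer per a figure legend of the study, and which holds for these libraries is uncertain. Each genotype is represented by 2 clonal lines, and a difference between clones cannot be told apart from a difference between genotypes unless both clones share it.

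Most cells that keep dividing need a way to add telomere repeats. Telomerase does so with a reverse transcriptase, TERT, that copies a template in the RNA TERC, and dyskerin, encoded by DKC1, binds and stabilises that RNA. U2OS cells are known to lack telomerase activity and to lengthen their telomeres by recombination instead, a route called alternative lengthening of telomeres (ALT). ATRX and DAXX form a chaperone that places histone H3.3 at telomeric repeats, and U2OS is known to be among the ALT lines that have lost ATRX protein. H3-3A and H3-3B both encode histone H3.3. SLX4 is the scaffold of nucleases that cut recombination intermediates, and RAD52 anneals single strands in recombination and at ALT telomeres. ZBTB48, also called TZAP, is a zinc finger protein that binds TTAGGG telomere repeats and some promoters.

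A promoter peak was a peak of the deposited lists within 1 kb of any annotated transcription start site (TSS) of the gene in GENCODE 44 on GRCh38. Where several peaks met this, the one with the highest −log10 p stood for the gene. The fold enrichment is the ratio of the fragment pileup at a peak's summit to a local background, and the percentile is the rank of a peak's −log10 p within its own list, with 100 for the strongest. The lists held 16730 to 37533 peaks. They give no read depth, and the smallest summit pileup in a list was 5 or 6 fragments, so a promoter without a peak may still hold signal below that limit. The ZBTB48 promoter was open in each of the 8 libraries, with percentiles of 64.0 to 95.3, which does not check the knockout, since a change in the coding sequence leaves the promoter in place. Of 5 markers of the osteoblast lineage, 2 had a promoter peak in every library, RUNX2 (percentiles of 2.57 to 40.4) and COL1A1 (51.2 to 86.4). SPARC had one in 5 libraries, ALPL in 4 and COL1A2 in 0. Of 5 markers of blood cells 0 had one in every library, and of 5 of epithelia 3 did (EPCAM, KRT8 and KRT18). The share over all protein-coding genes was 52.1%.

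The promoter windows of 6 of the 9 genes were held in the RefSeq promoter table used here (GRCh38.p14, 250 bases before to 50 after a start site, 5′ to 3′ on the gene's strand), and those of TERC, ATRX and DAXX were not. The 4 windows shown are that of TERT, whose start had no peak in any library, and those of DKC1, SLX4 and H3-3B, which had a peak in all of them. Capitals mark every match, on either strand, to the telomere hexamer TTAGGG, the NF-Y site CCAAT, the GC box GGGCGG, the E-box CACGTG or the ETS-like site CCGGAAG, and neighbouring or overlapping matches run together.
TERT, chr5:1295019-1295318, minus strand: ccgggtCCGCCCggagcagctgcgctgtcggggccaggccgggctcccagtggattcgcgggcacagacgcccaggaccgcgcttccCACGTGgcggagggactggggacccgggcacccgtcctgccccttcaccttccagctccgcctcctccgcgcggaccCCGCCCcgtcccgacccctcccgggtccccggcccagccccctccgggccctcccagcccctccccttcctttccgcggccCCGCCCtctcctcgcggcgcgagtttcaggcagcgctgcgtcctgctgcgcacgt
DKC1, chrX:154762614-154762913, plus strand: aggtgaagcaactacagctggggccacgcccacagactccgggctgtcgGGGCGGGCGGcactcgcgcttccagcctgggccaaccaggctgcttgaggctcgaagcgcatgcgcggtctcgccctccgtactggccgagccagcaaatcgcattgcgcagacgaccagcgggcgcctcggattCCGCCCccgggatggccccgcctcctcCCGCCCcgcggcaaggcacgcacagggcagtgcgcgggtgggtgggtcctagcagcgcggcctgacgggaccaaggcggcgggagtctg
SLX4, chr16:3611557-3611856, minus strand: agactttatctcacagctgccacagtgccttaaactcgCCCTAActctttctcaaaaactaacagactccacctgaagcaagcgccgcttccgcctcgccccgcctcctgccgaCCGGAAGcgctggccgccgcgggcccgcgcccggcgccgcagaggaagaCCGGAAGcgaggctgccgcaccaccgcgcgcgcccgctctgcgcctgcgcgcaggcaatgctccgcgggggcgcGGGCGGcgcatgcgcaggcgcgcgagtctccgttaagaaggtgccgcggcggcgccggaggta
H3-3B, chr17:75779730-75780029, minus strand: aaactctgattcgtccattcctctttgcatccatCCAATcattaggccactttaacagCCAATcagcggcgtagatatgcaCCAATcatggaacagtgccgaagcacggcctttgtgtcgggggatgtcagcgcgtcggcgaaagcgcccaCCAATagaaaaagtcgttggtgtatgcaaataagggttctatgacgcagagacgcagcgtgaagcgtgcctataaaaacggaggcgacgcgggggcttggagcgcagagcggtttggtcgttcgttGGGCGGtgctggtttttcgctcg

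The TERT window, without a called peak, resembled open promoters in its base composition. Its G+C content was 77.3%, higher than in 94.1% of the 34961 windows of the table, and it held 36 CpG dinucleotides, more than 87.3% of windows. Of the 2052 windows with at least that G+C content, 69.7% had a peak within 1 kb of their start in all 8 libraries and 6.53% had none, whereas over all windows these shares were 36.0% and 45.8%. Of the 4446 windows with at least as many CpG dinucleotides as that of TERT, the share open in every library was 78.7% and the share without any peak 5.98%. The TERT window was thus among the few CpG-rich windows without a peak. The H3-3B window had a G+C content of 54.0% and the DKC1 window one of 72.3%, both below that of TERT, and both were open in every library.

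**Figure D1:**
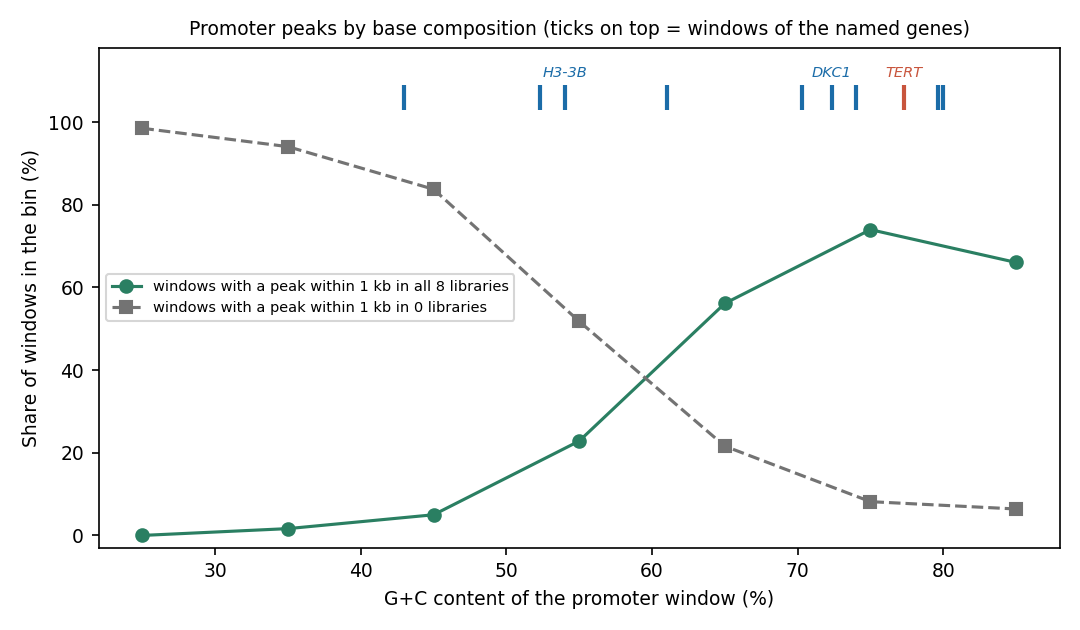
Share of RefSeq promoter windows (y axis, %) with a FAIRE-seq peak within 1 kb in all 8 libraries (circles) or in none (squares), by G+C content of the window (x axis, %, bins of 10 points drawn at their centre, bins under 20 windows left out); ticks on top mark the 10 windows of the members, TERT in red. TERT, at 77.3% G+C, lies where most windows were open in all libraries.

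Of the short motifs searched, the E-box was matched in the TERT window alone among the 10 member windows. The GC box GGGCGG, the core site of SP1-like factors, was matched 3 times in the TERT window, 4 times in that of DKC1 and 1 time in those of SLX4 and H3-3B, and was present in 45.0% of all windows. The E-box CACGTG, matched by MYC and related factors, occurred 1 time in the TERT window and in 7.27% of all windows. The H3-3B window held 4 matches to CCAAT, the site of NF-Y, a motif found in 34.6% of all windows. The SLX4 window held 2 matches to the ETS-like CCGGAAG, found in 10.3% of windows, and was the only one of the 10 member windows with TTAGGG, which 9.05% of all windows held. A match describes letters in the window and does not show that a factor was bound.

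TERT had no promoter peak in any of the 8 libraries. Of all 19970 protein-coding genes, 26.2% had a promoter peak in 0 libraries. The peak nearest to a TERT start was in untreated WT_5 at chr5:1293480-1293810, an exon of the gene, 1179 bp from a start and so just outside the window, with a fold enrichment of 3.95, a pileup of 7 fragments and a percentile of 2.90. It was absent from the other 7 libraries. A peak near the 3′ end of the gene (chr5:1253621-1254053) was found in untreated WT_4 alone, with a fold enrichment of 6.64 and a percentile of 23.6. The site found in the most libraries, 3 of 8, lay downstream of the gene at chr5:1246665-1247179. It had fold enrichments of 7.13 in untreated WT_5, 10.4 in IFNγ-treated WT_5 and 5.19 in IFNγ-treated KO_D2, and no peak elsewhere. Untreated WT_4 had a peak of 4.23-fold at chr5:1245916-1246460, next to that site. The 6 peaks at TERT thus lay in 4 libraries, and none covered a start of the gene.

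TERC, the template RNA, had a promoter peak in 2 of 8 libraries, and both were of clone WT_4. The gene spans chr3:169764520-169765060 on the minus strand. In untreated WT_4 the peak lay at chr3:169764537-169764796, within the transcribed sequence and 264 bp from the start, with a fold enrichment of 6.33, a pileup of 11 fragments and a percentile of 22.6. In IFNγ-treated WT_4 it lay at chr3:169764770-169765160, over the start itself, with a fold enrichment of 3.72, a pileup of 6 fragments and a percentile of 1.21. The other clone of the same genotype, WT_5, had no peak there in either library, and neither had the KO clones, so the presence followed 1 clone. Of the 19970 protein-coding genes, 0.26% showed that pattern, a promoter peak in both libraries of WT_4 and in no other. TERC is not protein-coding, and the share over noncoding genes was not computed. These peaks were near the limit of what was called: a −log10 q of at least 3 or a fold enrichment of at least 4 left 1 of them, and lists cut to the length of the shortest left none.

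A stronger site lay upstream of TERC at chr3:169772993-169773848, at the start of MYNN, a zinc finger gene transcribed away from TERC. It was present in 7 of 8 libraries and missing in untreated KO_C5. Its fold enrichment was 7.43 to 15.3 and its percentile 25.8 to 61.4. The WT and KO values overlapped. Downstream of TERC, IFNγ-treated KO_D2 alone had a peak of 4.58-fold at chr3:169763034-169763243.

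**Figure D2:**
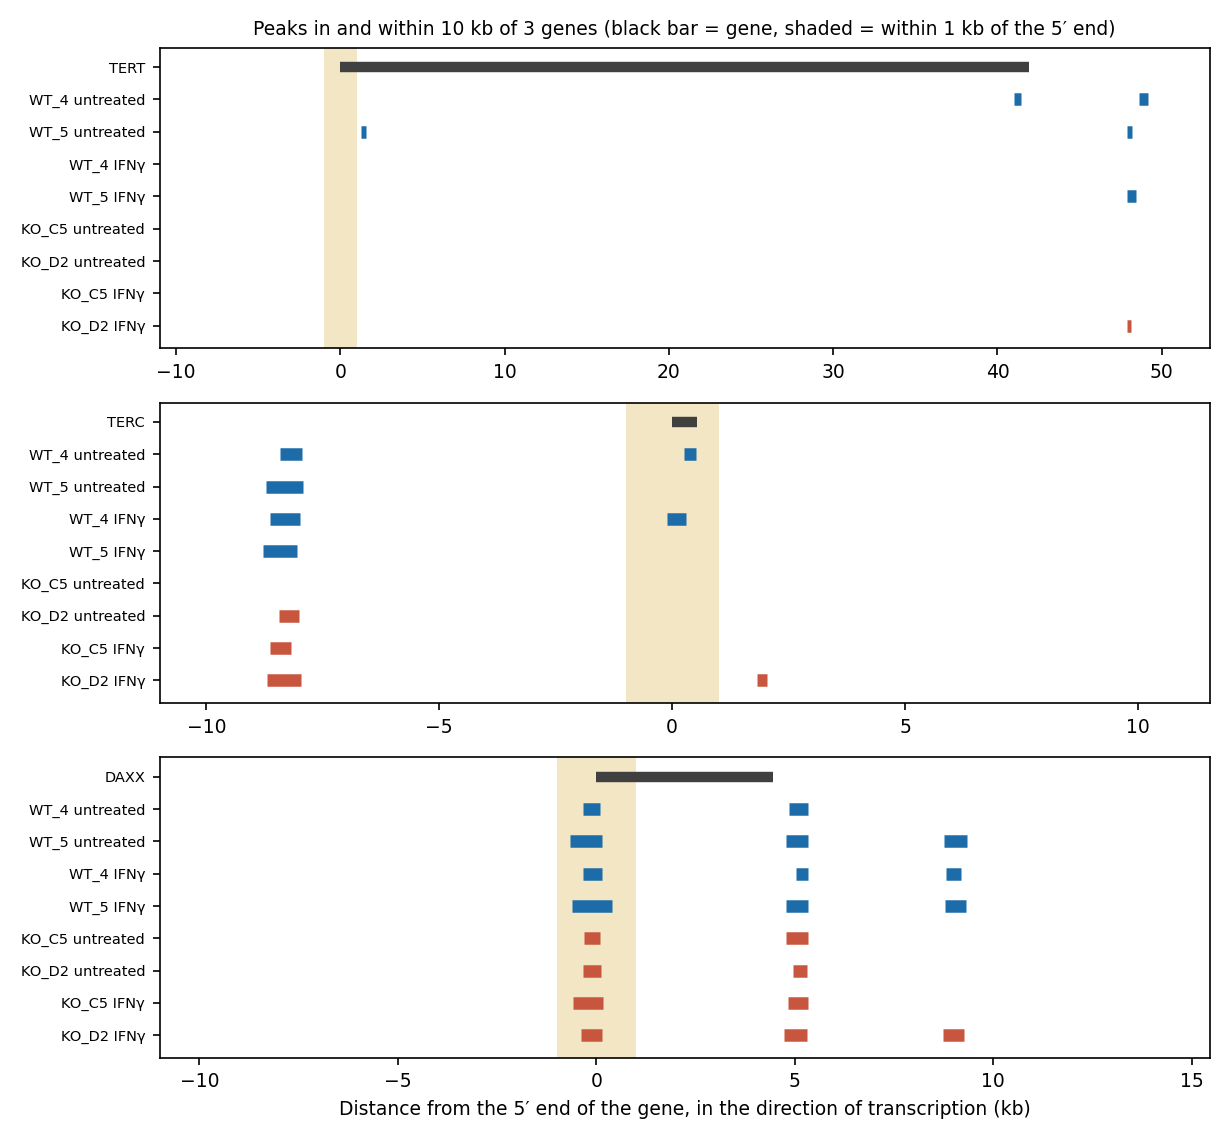
Peaks (coloured bars, WT in blue and KO in red) in and within 10 kb of TERT, TERC and DAXX in each of the 8 libraries (rows), by distance from the gene's 5′ end (x axis, kb, in the direction of transcription); the black bar is the gene and the shading 1 kb either side of its 5′ end. No library has a peak in the shaded part at TERT, 2 have one at TERC and all 8 have one at DAXX.

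DKC1, the protein partner of the telomerase RNA, was open in every library, unlike TERT and TERC. Its peak (chrX:154762449-154763298) had a fold enrichment of 71.8 and 53.3 in WT_4, 59.3 and 76.8 in WT_5, 74.7 and 74.2 in KO_C5 and 47.9 and 43.2 in KO_D2, each time untreated first. The percentiles were 88.9 to 95.5. KO_D2 was low and KO_C5 was among the highest, so the genotypes overlapped on both measures. The mean percentile over the 8 libraries, 92.1, exceeded that of 83.5% of the 10395 protein-coding genes with a promoter peak in all 8 libraries, which are 52.1% of all protein-coding genes. No other peak lay in DKC1 or within 10 kb of it.

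ATRX had a promoter peak in 6 of 8 libraries, a count reached by 3.28% of protein-coding genes, at chrX:77786027-77786430. Its fold enrichment in WT_5 was 15.2 untreated and 19.1 with IFNγ, and in KO_D2 it was 7.48 and 8.53. In WT_4 and in KO_C5 the peak was called with IFNγ only, at 5.55-fold and 12.5-fold. The percentiles, in the same order, were 60.7 and 65.4 in WT_5, 22.8 and 42.4 in KO_D2, 12.7 in WT_4 and 51.5 in KO_C5, and the pileups were 8 to 37 fragments. In each library with the peak, ATRX stood below all 6 genes that were open throughout. The peak was present in 4 of 4 IFNγ libraries and 2 of 4 untreated ones, and in 3 of 4 libraries of each genotype. With a peak in 6 of 8 libraries, no split by treatment can pass Fisher's exact test. The one observed is the most extreme possible, and its two-sided Fisher's exact p of 0.429 is the smallest that test allows. The test ignores the pairing of libraries by clone, and no paired test was run. In the 281354 bp of the gene and 10 kb on either side no library had a second peak. Whether the whole gene is present in these cells was not examined, so this lack of peaks is not a sign of closed chromatin. An open promoter is not a sign of ATRX protein, which was not measured.

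DAXX, the partner of ATRX, was open in every library but varied most among the 6. The fold enrichment at chr6:33322629-33323671 was 39.4 and 32.2 in WT_4, 54.6 and 82.6 in WT_5, 12.3 and 44.4 in KO_C5 and 31.3 and 35.5 in KO_D2, untreated first. The percentiles in the same order were 74.6 and 78.6, 93.1 and 96.0, 52.7 and 94.1, and 86.5 and 93.7. Untreated KO_C5 was the lowest library on both measures, the 2 libraries of WT_4 were next on the percentile, and the genotypes overlapped. Beyond the 3′ end lay a site at the start of ZBTB22 (chr6:33317675-33318294), present in all libraries at 13.4-fold to 40.0-fold. A second downstream site, at the start of TAPBP (chr6:33313686-33314276), was present in 3 of 4 IFNγ libraries (3.54-fold in WT_4, 9.18-fold in WT_5 and 6.40-fold in KO_D2) and in 1 of 4 untreated ones (4.38-fold in WT_5). The peak in IFNγ-treated WT_4 had a pileup of 5 fragments and a percentile of 0.449, at the calling limit. The share of all sites with such a split by treatment was not computed, and the split was not tested. TAPBP encodes tapasin, which loads peptides onto MHC class I.

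The promoter of H3-3A (chr1:226061746-226063226), shared with the divergent transcript H3-3A-DT, was the only one at which WT and KO libraries separated on both the fold enrichment and the percentile. The fold enrichment was 91.9 and 64.7 in WT_4, 57.5 and 71.7 in WT_5, 38.4 and 39.4 in KO_C5 and 29.7 and 29.6 in KO_D2, untreated first. Averaged by clone, WT gave 71.4 ± 9.72 and KO gave 34.3 ± 6.54 (SD over 2 clones). The percentiles were 92.9 to 95.6 in WT and 82.9 to 90.8 in KO. Over 10395 promoters, WT lay above KO without overlap at 23.6% on the fold enrichment and at 6.77% on the percentile. The share with both was not computed. The summit pileups overlapped, with WT libraries at 107 to 159 fragments and KO libraries at 83 to 146. The local background did not overlap, with WT libraries at 0.669 to 1.11 fragments and KO libraries at 1.83 to 3.47, and KO lay above WT in this way at 58.8% of promoters. The genotypes thus separated in the denominator of the fold enrichment and not in the pileup.

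H3-3B, the second H3.3 gene, had 2 promoter sites of like strength, and which of them was stronger varied between libraries. At the main start (chr17:75778733-75780156) the fold enrichment was 53.0 and 51.1 in WT_4, 34.2 and 49.0 in WT_5, 28.1 and 41.5 in KO_C5 and 37.5 and 26.7 in KO_D2. At the upstream site (chr17:75784486-75785310), which lies at the starts of UNK and MIR4738 as well, it was 51.5 and 35.2 in WT_4, 45.8 and 63.6 in WT_5 and 22.2 to 35.7 in the KO libraries. The upstream site stood for the gene in both libraries of WT_5 and in IFNγ-treated KO_D2. Taken over the stronger site the WT libraries (45.8 to 63.6) lay above the KO libraries (28.1 to 41.5), but at each site alone the genotypes overlapped. A weak intronic site of 4.18-fold to 5.61-fold, 1134 to 1182 bp from the nearest start and so just outside the window, was present in 5 libraries.

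SLX4 and RAD52, the recombination genes, were open in every library at the level of DKC1. The SLX4 peak (chr16:3611338-3611987), which also lies at a start of DNASE1, had a fold enrichment of 89.4 and 49.6 in WT_4, 51.6 and 64.2 in WT_5, 64.1 and 37.0 in KO_C5 and 41.7 and 30.5 in KO_D2, with percentiles of 89.4 to 97.4. With IFNγ it was lower in 3 of 4 clones and higher in WT_5, a pattern the test did not call. The main RAD52 peak (chr12:948851-950565) had a fold enrichment of 54.4 and 36.5 in WT_4, 64.4 and 88.7 in WT_5, 38.1 and 53.3 in KO_C5 and 25.7 and 35.7 in KO_D2, with percentiles of 84.7 to 98.8. WT_5 was high in both libraries and KO_D2 was low. A second site, upstream of the 5′ end of RAD52 and at a start of ERC1 (chr12:990362-991763), was open in all libraries at 12.5-fold to 43.7-fold. It lay 309 to 581 bp from the nearest RAD52 start, inside the 1 kb window, and covered no start of RAD52. Around SLX4 a further 4 sites were present in 1 WT library each, at 4.02-fold to 6.01-fold, and the introns of RAD52 held 3 weak sites.

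**Figure D3:**
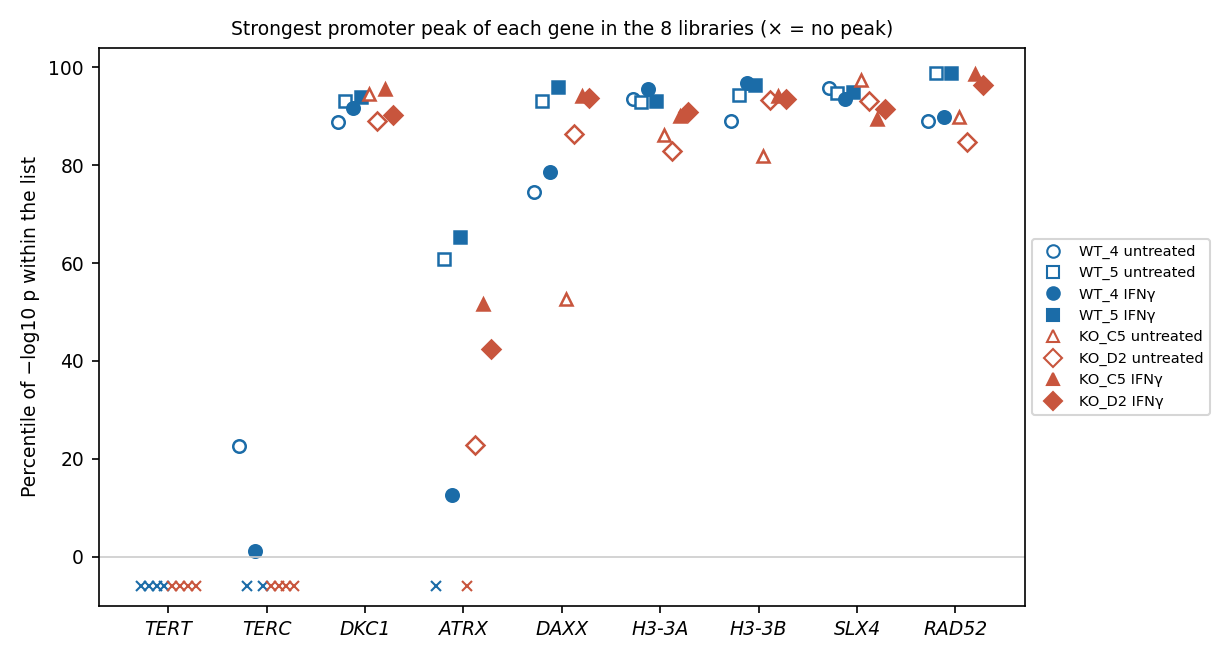
Percentile of −log10 p of the strongest promoter peak within its list (y axis) for the 9 genes (x axis) in each library; circles and squares are the WT clones, triangles and diamonds the KO clones, open symbols untreated and filled ones IFNγ, and a cross marks a library without a peak. TERT has no peak, TERC has 2 at 22.6 and 1.21, ATRX has 6 between 12.7 and 65.4, and the other genes have 8 each, all above 52.

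Set side by side, 6 of 9 genes had a promoter peak in all 8 libraries, against 52.1% of protein-coding genes. Both genes that encode the catalytic core of telomerase had one in 2 libraries or fewer, and of the 19970 protein-coding genes 5233 had a promoter peak in 0 libraries, 811 in 1 and 452 in 2. Of the other 7 genes, 6 had a peak in every library. The order of the mean percentiles was SLX4 (93.8), RAD52 (93.3), H3-3B (92.5), DKC1 (92.1), H3-3A (90.6) and DAXX (83.7), and the ranges of neighbours in this order overlapped. By library, 6 to 8 of the 9 genes had a promoter peak, while 58.7% to 69.8% of all protein-coding genes did. Over the 9 genes and 10 kb on either side there were 113 peaks in 26 regions, of which 9 were present in all libraries and 9 in only 1.

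The local background differed between WT and KO clones at most promoters, these genes included. It was solved together with the summit pileup from the deposited fold enrichment and −log10 p, and is given here relative to the lowest background of the same library. At DKC1 this ratio was 1.00 to 1.17 in WT and 1.25 to 1.29 in KO, at H3-3A it was 1.08 to 1.13 and 2.70 to 3.21, and at DAXX 1.29 to 1.30 and 2.97 to 3.52. At SLX4 it was 1.90 to 2.16 in WT and 3.21 to 3.31 in KO. The medians over all promoters open in every library were 1.64 to 1.74 in WT and 3.05 to 3.16 in KO. DKC1 stayed near the lowest background in KO libraries, whereas H3-3A and DAXX, at most 1.13 and 1.30 in WT libraries, lay around the KO median. In fragments, KO libraries were above WT libraries without overlap at 5 of the 6 genes, DKC1 excepted, against 58.8% of the 10395 promoters. For H3-3B the value came from the upstream site in both libraries of WT_5 and in IFNγ-treated KO_D2, and from the main start elsewhere. At its main start alone the genotypes overlapped, with 3.09 fragments in untreated WT_5 and 2.66 in untreated KO_D2.

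Between genotypes the limma fit of local background, each library centred on its median and the libraries of a clone averaged, called 70.3% of promoters. These calls went both ways, with 3589 promoters higher and 3720 lower in KO against the library median. Relative to that median, H3-3A was higher in KO by 0.58 on the log2 scale (SE 0.05, adjusted p = 0.000765) and DAXX by 0.47 (SE 0.06, adjusted p = 0.00159). DKC1 fell by 0.57 (SE 0.07, adjusted p = 0.00176), H3-3B fell by 0.30 (adjusted p = 0.0401) and SLX4 fell by 0.14 (adjusted p = 0.0469). The H3-3B estimate draws on different sites in different libraries, as described above. The SLX4 call was lost on omission of any 1 library other than IFNγ-treated KO_C5 (limma, adjusted p up to 0.103). The H3-3B call was lost without IFNγ-treated WT_5 (adjusted p = 0.168), untreated KO_D2 (0.0583) or IFNγ-treated KO_C5 (0.0532). RAD52 differed by -0.15 (SE 0.08, adjusted p = 0.155). Without centring, the median difference of all promoters was 0.95 and every one of the 6 genes had a higher local background in KO, with DKC1, at 0.40, not past the threshold (adjusted p = 0.149). The part of input DNA, copy number or preparation in this difference was not tested.

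**Figure D4:**
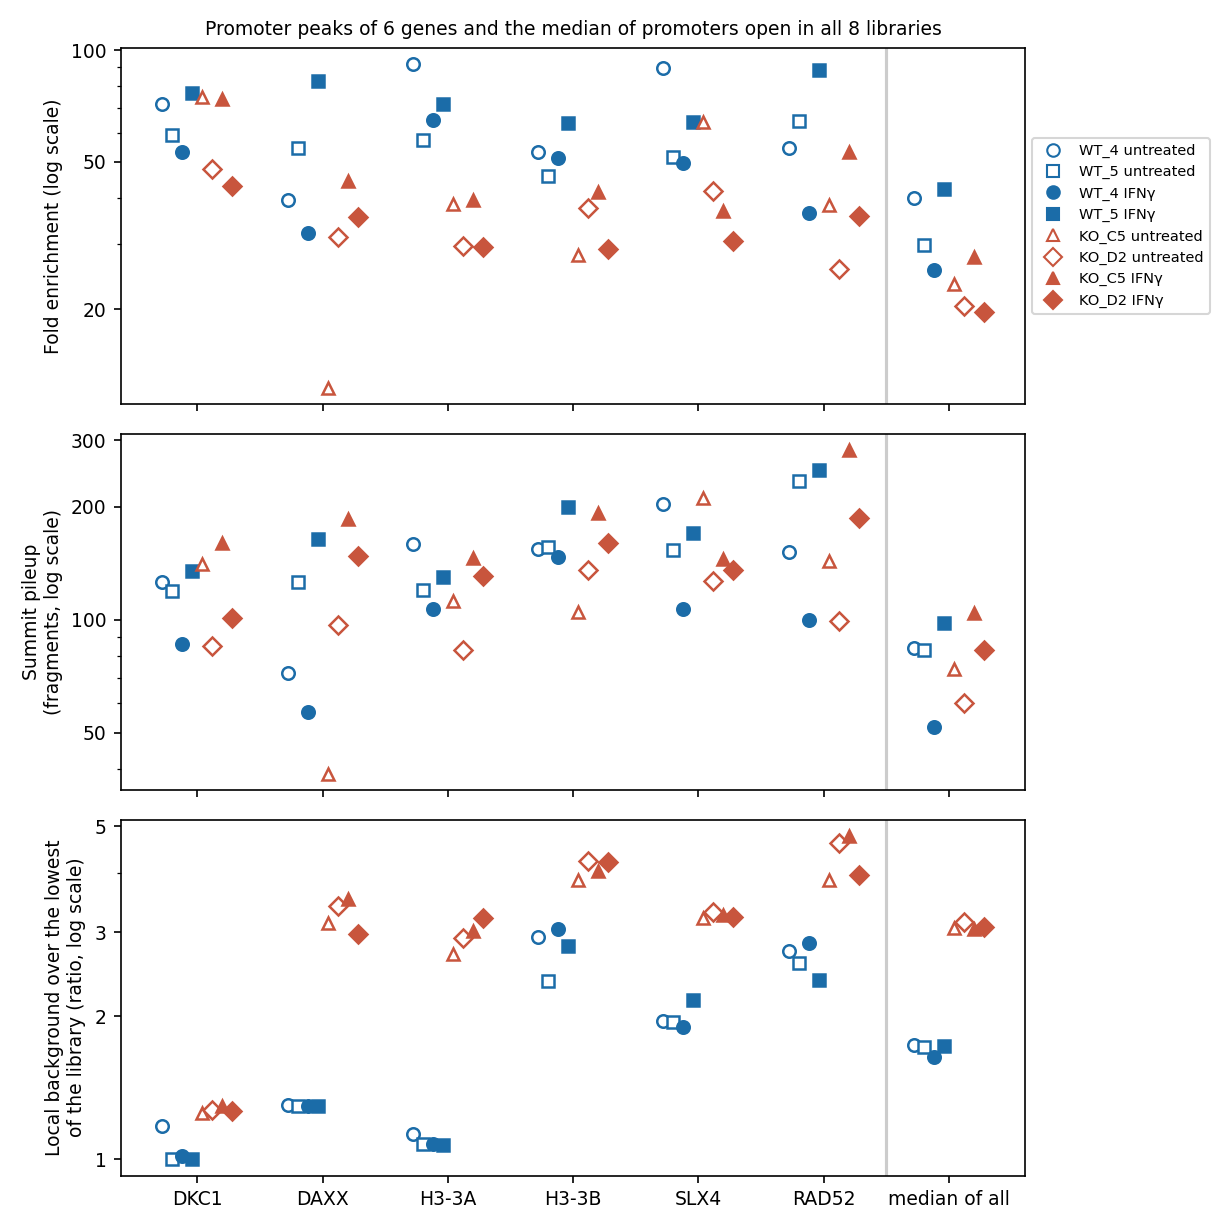
Fold enrichment, summit pileup (fragments) and local background relative to the lowest of the library (ratio), all on log scales, of the strongest promoter peak of 6 genes and, on the right, the median of the 10395 promoters open in all libraries; symbols mark clone and treatment as labelled. Fold enrichment and pileup of WT (blue) and KO (red) are mixed at most genes, while the local background ratio is higher in every KO library at each gene.

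The fold enrichment itself was not called between genotypes at any promoter. limma on log2 fold enrichment, centred on the library medians, with 2 WT against 2 KO clones and Benjamini-Hochberg adjustment over 10395 promoters, called 0% at an adjusted p under 0.05, and 601 promoters had an unadjusted p under 0.05. H3-3A differed by -0.47 (SE 0.28, 95% interval -1.14 to 0.20, adjusted p = 0.773) and DKC1 by 0.43 (SE 0.27, interval -0.23 to 1.08, adjusted p = 0.783), KO minus WT. For DAXX, H3-3B, SLX4 and RAD52 the differences were -0.23 to 0.01 (adjusted p of 0.915 to 0.996). The median over the 6 genes was -0.077, beside 0.0089 over all promoters. The intervals are wide, so changes of this size were not detectable with 2 clones a genotype. Without overlap between the libraries of the genotypes, WT fold enrichments lay above KO ones at 2 of 6 genes (H3-3A and H3-3B), against 23.6% of the 10395 promoters. On the percentile this held for 1 of 6 (H3-3A), against 6.77% of promoters, and on the summit pileup for 0 of 6, against 0.164%.

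With IFNγ the fold enrichment was likewise not called at any of the 10395 promoters (0%, 4 IFNγ against 4 untreated libraries with genotype as a covariate, limma), and 386 had an unadjusted p under 0.05. SLX4 differed by -0.46 (SE 0.21, interval -0.93 to 0.01, adjusted p = 0.819) and DAXX by 0.57 (SE 0.37, interval -0.25 to 1.39, adjusted p = 0.819). Without untreated KO_C5 the DAXX difference was 0.19. With the clone as a block, which pairs the libraries as the labels do, limma called 1 promoter, that of IL15RA, and 1571 had an unadjusted p under 0.05. In that fit the interval of DAXX was 0.03 to 1.11 and that of SLX4 -0.87 to -0.047, with adjusted p of 0.313 and 0.294. DKC1, H3-3A, H3-3B and RAD52 differed by -0.066 to 0.20. The median over the 6 genes was 0.044, beside -0.079 over all promoters. The fold enrichment was higher with IFNγ in all 4 clones at 0 of 6 genes, against 5.84% of promoters. The percentile was higher with IFNγ in all 4 clones at 5 of 6 genes, SLX4 excepted, against 16.4% of promoters. The lists were longer with IFNγ in 3 of 4 clones, and a percentile depends on the length of its list. With all lists cut to 16730 peaks the count was 1 of 6 genes (DAXX), against 9.32% of the 9403 promoters left. The cause of the first count was not tested.

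A difference of the IFNγ effect between WT and KO clones was called at none of the 10395 promoters (0%, limma on the differences of the clones), and 777 had an unadjusted p under 0.05. DAXX had the widest difference of the 6 genes, 0.70 (SE 0.45, interval -0.36 to 1.76, adjusted p = 0.685, KO minus WT), and it was 0.015 without the clone KO_C5 and 1.39 without KO_D2. SLX4 had -0.52 (SE 0.32, adjusted p = 0.681), and it was -0.19 without KO_C5 and -0.84 without KO_D2. The estimates for DKC1, H3-3A, H3-3B and RAD52 were -0.28 to 0.37. Over the 6 genes the median was -0.14, beside -0.081 over all promoters.

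**Figure D5:**
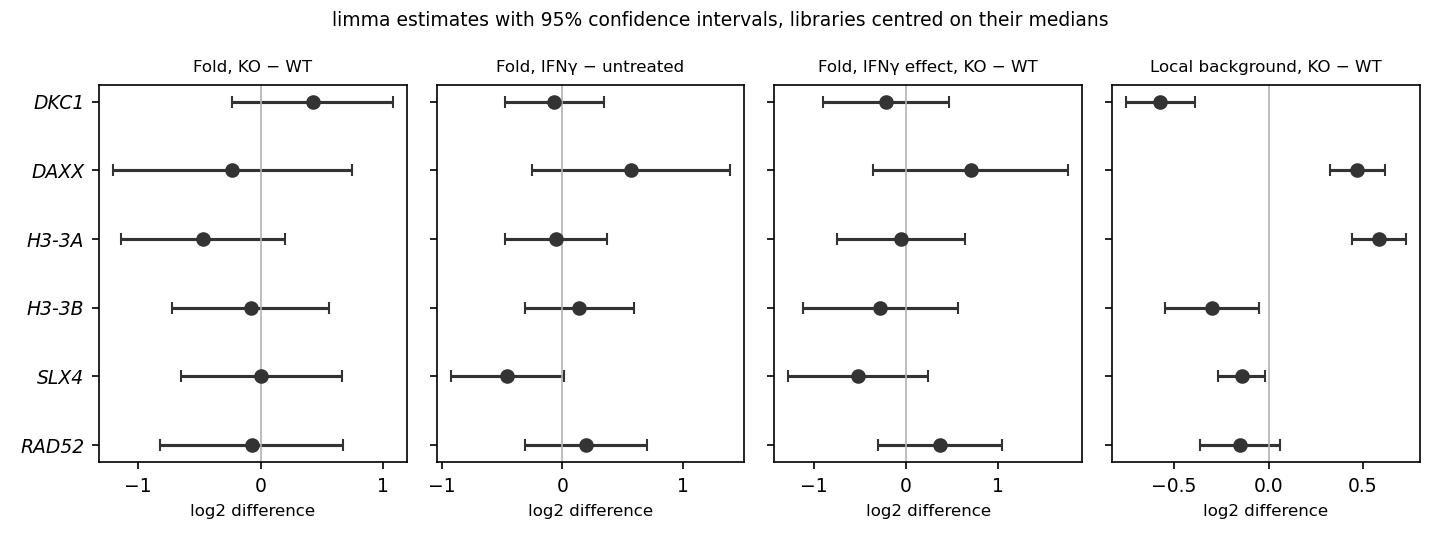
limma estimates (points, log2 difference on the x axis) with 95% confidence intervals (bars) for the 6 genes with a promoter peak in all libraries (y axis), in the fits of fold enrichment by genotype, by IFNγ and by their interaction, and of local background by genotype. Intervals of the fold enrichment, without the clone as a block, include 0 for every gene, and those of the local background exclude 0 for all but RAD52.

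Genes that act with these members were described from fixed lists. Of 9 genes of telomerase assembly and RNA maturation, 6 had a promoter peak in all libraries, against 52.1% of protein-coding genes. The other three were NOP10, a subunit of the dyskerin complex (4 libraries, percentiles of 34.3 to 61.3), GAR1, another subunit (6 libraries, 15.9 to 62.8) and NAF1, which assembles that complex (7 libraries, 25.4 to 70.7). GAR1 was absent from the same untreated WT_4 and KO_C5 libraries as ATRX, and NAF1 from untreated KO_C5. Of 6 genes of H3.3 deposition, among them the HIRA complex and ASF1A, 5 were open in all libraries, to be read against the same 52.1%. SETDB1, a histone H3 lysine 9 methyltransferase, was open in 5 of 8, at percentiles of 44.6 to 90.5.

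Of 20 genes of ALT-associated bodies and recombination, 13 were open in all libraries, again beside 52.1% of protein-coding genes. PML, the scaffold of the bodies in which ALT telomeres gather, MRE11, a nuclease of the end-resection complex, and SMARCAL1, a fork remodeller, were open in 7 libraries each, and EME1, a partner of the nuclease MUS81, in 4. SLX1A and SLX1B, the nuclease partner of SLX4, had no promoter peak in any library, as had 26.2% of protein-coding genes. They are near-identical copies, and reads of low mapping quality had been removed. Whether this bears on the lack of a peak was not tested. SP100, a component of PML bodies that interferon is known to induce, had a promoter peak in all 4 IFNγ libraries and in no untreated one. Its fold enrichment was 8.51 in WT_4, 20.0 in WT_5, 7.24 in KO_C5 and 7.02 in KO_D2. That pattern was shown by 0.02% of protein-coding genes, which are SP100, VAMP5, LNX1 and CIITA, the last 3 named after their values were seen. For CIITA a peak near any of its starts counted, so its promoters were not told apart. By FAIRE-seq the study reported open chromatin at the CIITA promoter pIII in IFNγ-treated WT but not KO cells. By FAIRE followed by qPCR it reported pIII more accessible in WT than in KO clones already without treatment, and more so with IFNγ. This count addresses neither report. Among list genes with a promoter peak in all libraries, which alone were tested, none passed a limma test of the fold enrichment.

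For TERC and ATRX, the protein-coding genes open in all libraries with the closest percentiles were looked up, with an absent peak taken as 0. HOXD3 (mean absolute difference of 9.66 percentile points over 8 libraries), FOXF2 (11.2) and ITM2B (12.3) were closest to TERC. CFAP298 and its readthrough CFAP298-TCP10L, which share a promoter (9.47), and MRPL43 (9.54) were closest to ATRX. By construction these genes have peaks where TERC and ATRX have none, so the likeness is a description of weak promoters.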

How the data were processed

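FAIRE-seq peak lists of 8 libraries (4 groups of 2) were used. Per the labels and the methods, the authors trimmed reads with Trimmomatic, aligned them to GRCh38 with Bowtie2 2.2.5, used SAMtools 1.14 to discard poorly mapped reads and called peaks library by library with MACS2 2.2.7.1; the tool names and versions are from the submitters' processing notes. Use of input DNA as control and treatment of duplicates are not given in the sources used here. The deposited lists hold, per peak, the fold enrichment (a ratio) and −log10 p and −log10 q values. Chromosomes 1 to 22 and X were used.

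Summit pileup and local background were solved from the deposited fold and −log10 p under MACS2's Poisson formula, and a whole pileup was found for 100% of peaks (relative tolerance of 0.0001 on −log10 p). log2 fold enrichment was tested with limma 3.58.1 in R 4.3.3 and Benjamini-Hochberg adjustment at 0.05 over all promoters with a peak in every library; local background was tested likewise after the data were seen. Groups came from the labels. The clone, which the labels give, pairs untreated and IFNγ libraries, and the libraries of a clone deviated together (correlation across promoters of 0.737 in WT and 0.411 in KO). The fits were checked on simulated data drawn without spread between clones, so the check does not cover that spread. Alternatives were other windows, measures, lists, gene sets and centring, and the omission of each library or clone. Named genes were all members, genes that share their promoters, list genes open in fewer than 8 libraries, and the 3 genes closest to TERC and to ATRX. Members and lists were chosen with earlier results of these data known. p-values of the genotype and interaction fits measure the spread between these clones only. The IFNγ fit without the clone as a block counts the libraries of a clone as independent. With the block, the level of each clone is removed first.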

Additional observations from a re-analysis of the deposited data

Results flagged for a closer look

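In groups of 4 libraries, a library was marked when its gap to the nearest other library was, relative to the range of the group, above Dixon's 95% critical value. Of 48 groups tested (6 genes, fold enrichment and percentile, by genotype and by treatment), 2 had such a library, and chance gives about 1 in 20. The percentile of DAXX in IFNγ-treated WT_4 was 78.6, the lowest of the IFNγ libraries, with the next at 93.7. The percentile of H3-3B in untreated KO_C5 was 81.9, the lowest of the KO libraries, with the next at 93.4.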

How the results depend on the processing

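The 6 genes with a promoter peak in every library numbered 6 under each alternative tried. The peaks in and around the genes, 113 in all, numbered 245 with 50 kb in place of 10 kb. Without centring, the fit by genotype called 4 promoters lower in KO (RPL39L, POP4, C19orf12 and ZNF324B) and the fit by IFNγ called 3 higher (CMPK2, RSAD2 and IL15RA); with the clone as a replicate block, a pairing given by the labels, the IFNγ fit called 1 (IL15RA). These genes are named after their values were seen, no member was among them, and every other setting of the 3 fold enrichment fits called 0, also without each replicate. Local background calls numbered 6791 to 7157 without each library and 8172 without centring.

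Estimates of members changed sign as follows. Without centring, fold enrichment by genotype was -0.57 for SLX4 and -0.15 for DKC1, the interaction was 0.11 for H3-3A, and local background was 0.82 for RAD52, 0.83 for SLX4, 0.67 for H3-3B and 0.40 for DKC1, where the calls of SLX4 and H3-3B turned from lower to higher in KO and that of DKC1 was lost. With the percentile, RAD52 by genotype was 2.03 points and H3-3B 0.33. With the outermost start alone, which for RAD52 and H3-3B takes another peak, RAD52 was -0.14 by IFNγ and -0.51 in the interaction, and H3-3B 0.37 in the interaction. With the summit pileup, chosen after the data were seen, DAXX was 0.045 and SLX4 -0.051 by genotype, and H3-3A 0.019 by IFNγ and 0.043 in the interaction. Leaving out 1 library or clone gave by genotype -0.25 to 0.27 for SLX4, -0.23 to 0.066 for H3-3B, -0.63 to 0.17 for DAXX and -0.21 to 0.059 for RAD52, by IFNγ -0.18 to 0.057 for H3-3A and -0.13 to 0.045 for DKC1, and in the interaction -0.22 to 0.10 for H3-3A and -0.59 to 0.040 for H3-3B. Centring subtracts the median of each library, so leaving it out shifts every estimate of a fit by the same amount. The cause of the other sign changes was not tested. With 1 clone of a genotype left out, the remaining clone was assumed to vary like the others.

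Peak lists hold no reads below the calling limit, so absence of a peak at TERT, TERC or ATRX is absence of a call. List lengths differed by library, and a percentile depends on them.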
